A study of Caenorhabditis elegans with 24 samples.

Results

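The transcripts of A-class motor neurons of the nematode Caenorhabditis elegans were set against RNA from all larval cells on Affymetrix arrays. The comparison took the 4 arrays labelled larval A-class and the 5 arrays labelled larval reference that were normalized together, which are 9 of the 24 samples of the series, and read every gene on the array. Other samples of the series are embryonic neurons with their own reference and a larval pan-neural sample that is used here for side-by-side values.

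All larvae were synchronized at the mid-L2 stage and fixed with formaldehyde, and RNA was recovered by mRNA-tagging. A promoter makes the poly(A)-binding protein PAB-1 with a FLAG tag in certain cells, and anti-FLAG antibodies draw it out of the lysate with the transcripts that it holds. The A-class larvae were strain NC694, which carries unc-4::3XFLAG::PAB-1 on the array wdEx257 (Ex marks an extrachromosomal array, a transgene that dividing cells can lose). By the study's account, the unc-4 promoter is strong at this stage in the VA and SAB motor neurons, the AVF interneurons and the pharyngeal neuron I5 and weaker and sporadic in the DA motor neurons, so the sample is not of VA and DA cells alone. The reference was the low level of RNA that stuck to the beads in mock pull-downs from wild type N2 larvae, which carry no tag. The reference therefore lacks the transgene and the tagged protein as well as the choice of cells. The pan-neural larvae were strain SD1241 with the integrated transgene gaIs153, F25B3.3::FLAG::PAB-1. In such a pull-down fewer cells of a type and less RNA per cell cannot be told apart.

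A-class motor neurons are excitatory cells of the ventral nerve cord that release acetylcholine onto body wall muscle and drive backward crawling. The homeodomain protein UNC-4 sets which interneurons contact the VA cells, and the COE factor UNC-3 switches on the shared genes of cholinergic motor neurons, among them those for making and packing acetylcholine. Their neighbours in the cord include DD and VD motor neurons, which release GABA and inhibit the muscle.

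The RMA intensity is the brightness of a probe set in arbitrary units after background correction and normalization, and the values of a gene are given below in the order of A-class replicates 1 to 4 and reference replicates 1 to 5. Arrays of a group resembled each other. The squared correlation across 22548 probe sets was 0.970 to 0.991 between A-class arrays, 0.953 to 0.984 between reference arrays and 0.935 to 0.976 between the groups. Median intensities were 56.0 to 58.3. The Gapdh 3′ probe set exceeded its 5′ probe set, a measure of shortened transcripts, by a log2 difference of 2.49 ± 0.26 (SD, n = 4) in the A-class arrays and 2.41 ± 0.59 (n = 5) in the reference (exact permutation test, two-sided, p = 0.849, where 0.0159 is the smallest p that 126 splits allow). Actin gave 3.47 ± 0.36 and 3.28 ± 1.05 (exact permutation test, p = 0.754), and reference replicate 4 was lowest in both measures (1.46 and 1.67). The records of the arrays name 6 days, and 0 of them hold arrays of both groups, so that day and group cannot be told apart. A-class replicates 2 and 3 share a day, as do reference replicates 2 and 3 and reference replicates 4 and 5. A-class replicate 1 alone was washed with another fluidics protocol. The labels call the arrays biological replicates, so p-values measure the spread between such replicates, and their number limits the precision of every value.

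The comparison asked which transcripts are held by the tagged protein in A-class neurons beyond those of an average larval cell. Against 0.888% of all genes, the genes called higher in the A-class sample were 7 of 20 of motor neuron identity, 6 of 34 of the synaptic vesicle and the active zone, 4 of 25 FMRFamide-like peptide genes and 6 of 69 potassium channel genes, 5 of them tandem-pore channels. Lists and members were chosen with earlier results of these data known, so these shares describe the lists and are not independent support. The first list holds unc-4, unc-3 and unc-17, and unc-4 is the gene whose promoter drove the tag. Of 9 genes for making, moving and breaking down acetylcholine 1 was called, unc-17, and the listed genes that mark GABA, dopamine, glutamate, touch and ciliated neurons were not called. Calls were made by limma at a change of 1.5-fold or more and an adjusted p under 0.01. Of 22548 probe sets, 175 were called higher (0.776%) and 26 lower (0.115%). Read once per gene, from the probe set with the highest mean intensity, 152 of 17118 genes were higher (0.888%) and 21 lower (0.123%). The median log2 change over all genes was -0.01. At these shares 0 called genes in a short list is near the rate of all genes and is not a result about its members. The counts moved with single arrays. They were 99 higher and 39 lower without A-class replicate 1, 118 and 7 without A-class replicate 2, 89 and 8 without A-class replicate 3, 118 and 8 without A-class replicate 4, 112 and 18 without reference replicate 1, 82 and 7 without reference replicate 2 and 141 and 11 without reference replicate 4. Of the 175 probe sets, 69 were called in all 9 fits that each left out 1 array, and so were 4 of the 26. With the day of the array as a random block, 107 were higher and 9 lower.

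**Figure D1:**
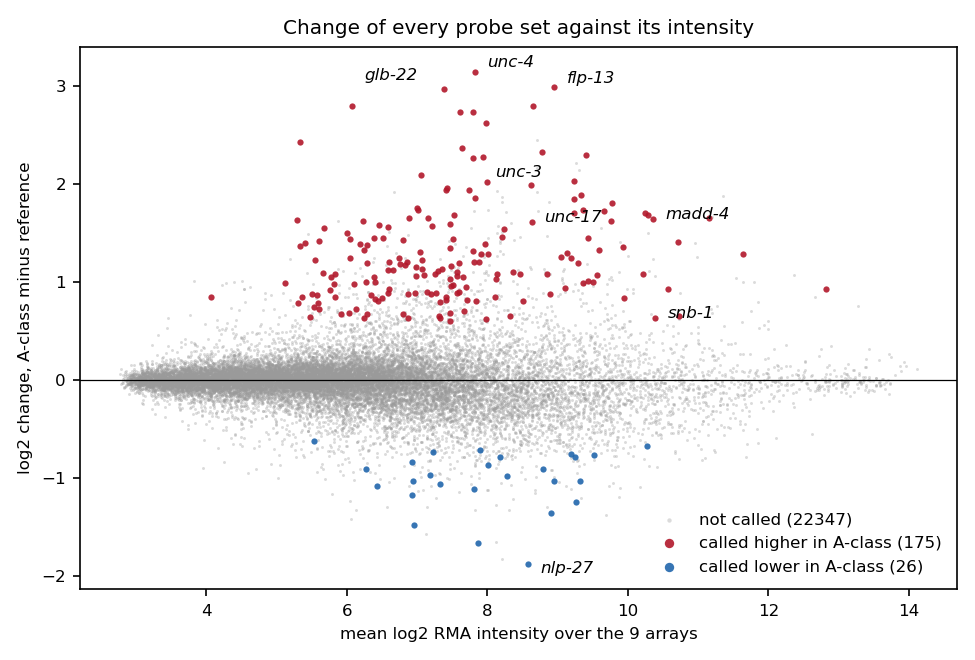
The log2 change of each probe set (vertical axis, A-class minus reference) is plotted against its mean log2 RMA intensity over the 9 arrays (horizontal axis). Red points are the 175 probe sets called higher, blue points the 26 called lower and grey points those not called, and the 8 genes named on the plot are described in the text.

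The gene whose promoter drove the tag led the list. unc-4 measured 849, 572, 653 and 1039 in the A-class arrays and 83.5, 76.8, 74.3, 90.2 and 108.1 in the reference. Every A-class array lay above every reference array, with replicate 4 highest and replicate 2 lowest. This was a rise of 8.83-fold (log2 change 3.14 ± 0.18 SE, adjusted p = 3.88e-05), and it was called in all 9 fits that left out an array, with an adjusted p of at most 0.000451. The unc-4 promoter is also part of the transgene, and whether the probe set reads transcripts of the transgene was not tested.

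unc-3, which encodes the COE factor of cholinergic motor neurons, measured 759, 407, 542 and 708 against 103.1, 101.3, 126.3, 107.9 and 183. The groups did not overlap, although reference replicate 5 stood above the other 4. The rise was 4.84-fold (2.28 ± 0.22, adjusted p = 0.001) on this probe set and 0.38 on the log2 scale on the other probe set of the gene, which was not called. The vesicular acetylcholine transporter gene unc-17 measured 786, 623, 672 and 898 against 196, 239.9, 248, 249 and 289, again without overlap and with A-class replicates 2 and 3 below 1 and 4. It rose 3.04-fold (1.60 ± 0.13, adjusted p = 0.000515), and all 3 of its probe sets were called, the lowest at 0.80. In the pan-neural sample unc-3 and unc-17 were called higher too, at 1.57 ± 0.20 and 2.12 ± 0.21. The test of the A-class minus pan-neural enrichment, described below, called neither gene (0.70 ± 0.21 and -0.52 ± 0.23). These 3 defining markers of the labelled cells, unc-4, unc-3 and unc-17, were thus higher on every A-class array, and all 3 kept their call in each fit with 1 array left out and with the day as a random block. Against reference replicates 4 and 5 alone, whose array records are laid out like those of the A-class arrays, all 3 missed the threshold (adjusted p = 0.0138 for unc-4, 0.0499 for unc-3 and 0.0283 for unc-17). That fit held 2 references that share a day in place of 5, so the smaller number of arrays and the record layout cannot be told apart.

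Choline acetyltransferase, which makes acetylcholine, is encoded by cha-1 in the same gene complex as unc-17. Its probe set measured 269, 159, 169.7 and 193 in the A-class arrays and 99, 82.1, 118.9, 93.1 and 128.98 in the reference. All A-class arrays stood above the reference, but replicates 2 and 3 were close to its upper end. The log2 change was 0.91 ± 0.18 with an adjusted p of 0.0234, so it was not called. cho-1, the choline transporter gene, had 0.67 ± 0.18 (adjusted p = 0.0892) with overlapping groups. Of the 9 measured genes for making, moving and breaking down acetylcholine, only unc-17 was called, and the list's median was 0.37.

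**Figure D2:**
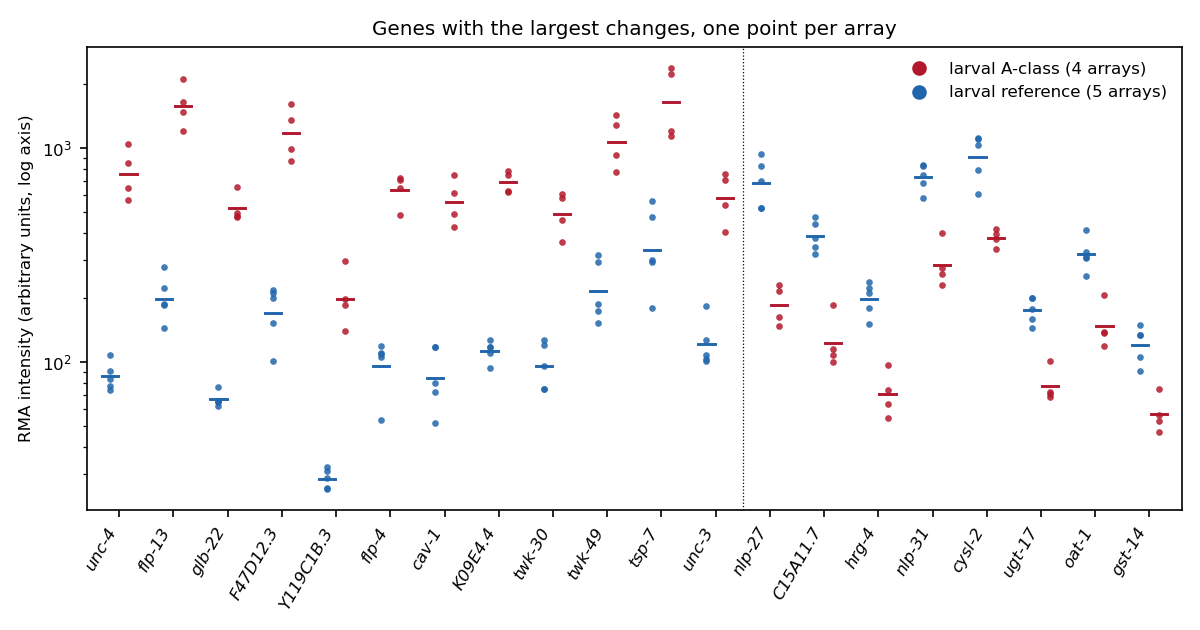
RMA intensity (vertical axis, arbitrary units, log axis) is plotted for the 12 genes most raised and, right of the dotted line, the 8 most lowered, with 1 point per array and a bar at the mean of the log2 values. Red points are the 4 A-class arrays and blue points the 5 reference arrays, and in each of these genes the red and blue points do not overlap.

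Among 20 measured genes of motor neuron identity, 7 were called higher and 0 lower, and the median log2 change was 0.68. All 20 values were above 0, against 8186 of 17118 over all genes. With an array left out, 4 to 6 of the 20 were called higher. The groups did not overlap for 12 of the 20, all of them higher in the A-class arrays, against 4.26% of all genes. The summed intensity of the list was 3786 to 5214 in the A-class arrays and 1735 to 2248 in the reference. Besides the 3 markers, the called members were unc-129, which encodes a TGF-β ligand that guides motor axons, at 1.12 ± 0.13, the DEG/ENaC channel subunit gene del-1 at 1.15 ± 0.14, and the acetylcholine receptor subunit genes acr-12 at 0.90 ± 0.14 and acr-2 at 0.67 ± 0.10. Of these, unc-129 was called in all 9 fits with an array left out. del-1 missed the threshold without A-class replicate 3 (adjusted p = 0.0122), acr-2 did so in every fit but the one without A-class replicate 2 (up to 0.0243), and acr-12 did so in all 9 (0.0123 to 0.0322). With the day as a random block del-1, acr-2 and acr-12 had adjusted p-values of 0.0115, 0.0101 and 0.0208. Members with the largest changes that were not called were glr-4, which encodes a glutamate receptor subunit, at 0.96 ± 0.17 (adjusted p = 0.0181), cha-1 and the nicotinic subunit gene acr-14 at 0.77 ± 0.14 (adjusted p = 0.0186), each with separate groups.

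Nicotinic and related acetylcholine-gated subunits form the receptors by which neurons and muscle sense acetylcholine. Of 32 measured genes 5 were called higher and 0 lower, and the median was 0.05. acr-19 measured 196, 104.1, 158 and 211 against 53.9, 54.7, 46.2, 50.2 and 67.8, 2.99-fold higher with separate groups and A-class replicate 2 lowest of its group (1.58 ± 0.20, adjusted p = 0.00304). The acetylcholine-gated chloride channel gene acc-4 measured 405, 205, 189 and 341 against 74.3, 101.5, 85.9, 82.7 and 118.8. A-class replicates 1 and 4 were high and replicates 2 and 3 lower, all above the reference (1.56 ± 0.24, adjusted p = 0.00795). unc-38, whose product joins ACR-2 and ACR-12 in a receptor of the motor neurons and also serves in muscle, had 0.96 ± 0.13 (adjusted p = 0.00403). These calls depended on single arrays. Without A-class replicate 4 or without reference replicate 1 the count fell to 0, without A-class replicate 1 or 3 or reference replicate 2 or 3 it was 1, without reference replicate 4 it was 2, without A-class replicate 2 it was 3, and with the day as a random block only acr-19 was called (adjusted p = 0.00783, with 0.012 for acc-4 and 0.0151 for unc-38).

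Of 34 genes of the synaptic vesicle and the active zone, 6 were called higher and 0 lower, and the median was 0.36. A log2 change above 0 was found for 31 of them, against 8186 of 17118 over all genes. The SNAP-25 gene ric-4, part of the complex that fuses vesicles with the membrane, measured 1878, 1489, 1412 and 1831 in the A-class arrays and 589, 619, 713, 601 and 695 in the reference. The groups lay far apart, with the lowest A-class array, replicate 3, well above every reference array. ric-4 rose 2.56-fold (1.35 ± 0.11, adjusted p = 0.000413). unc-18, whose product binds syntaxin, rose 1.99-fold (1.00 ± 0.10, 0.35 on the other probe set), the complexin gene cpx-1 had 1.19 ± 0.16, the synaptotagmin gene snt-1 0.93 ± 0.14, the presynaptic assembly gene syd-1 0.87 ± 0.14 and the synaptobrevin gene snb-1 0.63 ± 0.08. Both ric-4 and unc-18 were called whichever array was left out. snb-1 was lost without A-class replicates 2, 3 or 4 or reference replicate 2 (up to 0.0133), cpx-1 without A-class replicates 1 or 4 or reference replicates 1, 2, 3 or 5 (up to 0.0208), snt-1 without any array but reference replicates 4 and 5 (up to 0.0262) and syd-1 without any but reference replicate 3 (up to 0.034), so that the list's count was 2 without A-class replicate 4 or reference replicate 2. The day as a random block left 4, with adjusted p-values of 0.0163 for snt-1 and 0.0253 for syd-1. The small GTPase gene rab-3 (1.18 ± 0.20, adjusted p = 0.0142) and the synaptogyrin gene sng-1 (1.10 ± 0.22, adjusted p = 0.0297) had separate groups and were not called. unc-11, the AP180 gene, measured 589, 543, 582 and 587 against 108.97, 116.8, 273, 314 and 412, a wide reference that left an adjusted p of 0.0778.

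Axonal transport and motor axon genes gave 3 called of 21. The JNK kinase gene jnk-1 rose 2.46-fold (1.30 ± 0.16), its activating kinase gene jkk-1 2.19-fold (1.13 ± 0.12) and unc-69, which encodes a coiled-coil protein of axon outgrowth, 2.04-fold (1.03 ± 0.14). Both probe sets of jnk-1 and of jkk-1 were called. jkk-1 kept its call in all 9 fits, while jnk-1 was lost without any A-class array or reference replicate 2 (up to 0.0147) and unc-69 without any A-class array or reference replicates 1, 2 or 5 (up to 0.0203). Only jkk-1 was called with the day as a random block (0.0109 for jnk-1 and 0.0103 for unc-69).

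Among 51 genes of G protein signalling 3 were called, the muscarinic receptor gene gar-2 (1.28 ± 0.20), the Go alpha subunit gene goa-1 (0.65 ± 0.10) and the adenylyl cyclase gene acy-2 (0.84 ± 0.13). acy-2 measured 21 to 28.5 against 10.1 to 15.5, near the floor of the array, so that its change is rough. Other probe sets of goa-1 gave as little as 0.10. No gene of the 3 was called with the day as a random block (adjusted p of 0.0169, 0.0367 and 0.0262), and the count was 0 without any A-class array or without reference replicates 1, 2 or 4, and 1 without reference replicate 3. The G protein gamma subunit gene gpc-2 (1.23 ± 0.26, adjusted p = 0.0334) and the protein kinase A subunit gene kin-2 (1.00 ± 0.18, adjusted p = 0.0177) had separate groups and were not called.

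FMRFamide-like peptides are short secreted peptides that tune the activity of neurons and muscle, and each flp gene is made in its own set of neurons. Of 25 measured flp genes 4 were called higher and 0 lower, with a median of 0.18. flp-13 measured 1634, 1195, 1474 and 2098 against 144, 184, 186, 277 and 221, with every A-class array far above the reference and replicate 4 highest. It rose 7.93-fold (2.99 ± 0.20, adjusted p = 0.000128). flp-4 measured 727, 488, 649 and 705 against 53.3, 109.7, 118.3, 109.1 and 105.1. Reference replicate 1 was low and the groups were far apart (2.73 ± 0.23, 6.65-fold, adjusted p = 0.000518). flp-32 measured 552, 448, 496 and 634 against 122.2, 108.96, 107.6, 103.1 and 111.3, the tightest reference of the 4 genes (2.26 ± 0.10, 4.78-fold, adjusted p = 7.66e-06). These 3 genes were called in all 9 fits with an array left out. flp-12, at 938, 1109, 1228 and 1312 against 489.9, 693, 551, 474 and 528, rose 2.1-fold (1.07 ± 0.13) with a smaller gap between the groups, and its call was lost without A-class replicates 2, 3 or 4 (up to 0.0125). flp-2 (1.12 ± 0.18, adjusted p = 0.01) and flp-5 (0.74 ± 0.13, adjusted p = 0.017) also had separate groups and were not called.

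The larval pan-neural sample, 3 arrays in which the tag was made in all neurons, was compared with the same 5 reference hybridizations, normalized anew with it. The A-class and the pan-neural comparison thus share their controls, and their values are given side by side. Against the reference 1156 genes were higher (6.75%) and 627 lower (3.66%) in the pan-neural sample, flp genes among them at 21 of 25 higher and 0 lower with a median of 2.09. Of the 152 genes called higher in the A-class sample, 123 were called higher in the pan-neural sample too. Also higher there were 12 of 20 motor neuron identity genes (median 1.13) and 22 of 34 genes of the synaptic vesicle and the active zone (median 1.17). flp-13, flp-4 and flp-32 had pan-neural changes of 2.80 ± 0.27, 2.50 ± 0.23 and 1.80 ± 0.09. To test the difference itself, the mean of the references was subtracted within each set and the enrichments were compared by limma, which called 361 genes higher in the A-class sample (2.11%) and 745 lower (4.35%). Of the 25 flp genes 19 had a lower enrichment in the A-class sample and 0 a higher one, with 17 to 19 when an array of either sample was left out. The differences of flp-13, flp-4 and flp-32 were 0.19 ± 0.27, 0.23 ± 0.17 and 0.46 ± 0.13 and were not called (adjusted p = 0.751, 0.483 and 0.0513), while that of flp-12 was -1.04 ± 0.14, called lower in the A-class sample, a call lost without pan-neural replicate 3 (adjusted p = 0.011).

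**Figure D3:**
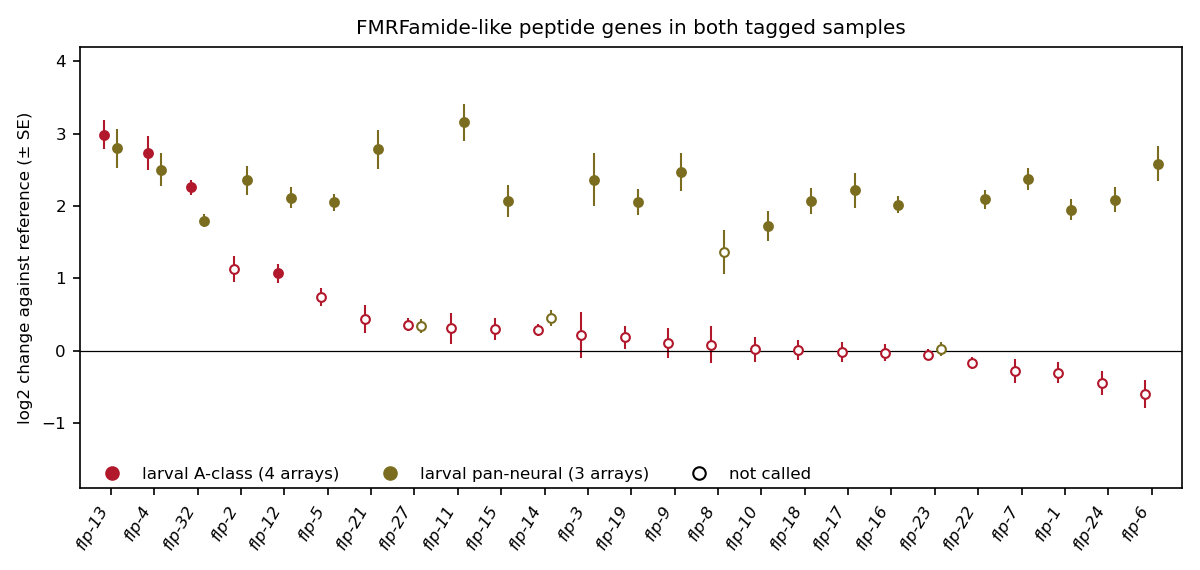
The log2 change against the reference (vertical axis, points with bars of ± SE) is plotted for the 25 measured flp genes in the A-class sample (red, 4 arrays) and the pan-neural sample (olive, 3 arrays), with open points where a change was not called. The samples share the 5 reference hybridizations, and 4 genes have filled red points while 21 have filled olive points.

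Of 58 measured nlp neuropeptide genes 3 were called higher and 2 lower, and the median was -0.04. nlp-9 measured 2132, 1383, 1672 and 1865 against 430.2, 545, 669, 429 and 467. All A-class arrays stood well above the reference, with replicate 1 highest. The rise was 3.48-fold (1.80 ± 0.16), and both probe sets were called. nlp-14 rose 3.08-fold (1.62 ± 0.17) and nlp-21 3.82-fold (1.94 ± 0.24). nlp-9 and nlp-14 were called in all 9 fits, and nlp-21 was lost without A-class replicates 3 or 4 or reference replicate 2 (up to 0.0135). nlp-80 had 1.11 ± 0.19 with separate groups (adjusted p = 0.0128).

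The nlp gene with the deepest fall was nlp-27, a member of a cluster that codes for antimicrobial peptides of the epidermis. It measured 214, 147, 229 and 163 in the A-class arrays and 526, 939, 526, 823 and 697 in the reference. All A-class arrays lay below all reference arrays. nlp-27 was 3.69-fold lower (-1.88 ± 0.20, adjusted p = 0.00166) in the A-class sample, the largest fall of all called genes, and was -1.51 ± 0.23 in the pan-neural sample. nlp-31, of the same cluster, was 2.57-fold lower (-1.36 ± 0.17). Its call was lost without A-class replicate 2 or reference replicate 2 (up to 0.0114) and with the day as a random block (adjusted p = 0.0105). Both nlp-27 and nlp-31 were read from probe sets of shared sequence, so their falls may share signal.

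Neuropeptides are cut and packed by shared enzymes of dense-core vesicles, and 0 of 18 such genes were called in either direction, with a median of 0.37. The dense-core vesicle gene ida-1 (0.85 ± 0.17, adjusted p = 0.0256) and the proprotein convertase gene egl-3 (0.75 ± 0.21, adjusted p = 0.087) had separate groups. Insulin-like peptide genes gave 0 of 24, with a median of -0.03. When single arrays were left out, 0 or 1 gene was called higher in each of the 2 lists.

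Potassium channels set how readily a neuron fires. Of 69 measured genes 6 were called higher and 0 lower, and 6 were called in each of the 9 fits with an array left out and with the day as a random block, although the median of the family was 0.02. Of the 6, 5 were twk genes, which encode tandem-pore channels that set the resting potential. twk-30 measured 582, 364, 459 and 608 against 127.00, 74.5, 74.9, 95.4 and 119.7. All A-class arrays were above the reference, with replicate 2 lowest. It rose 5.14-fold (2.36 ± 0.21, adjusted p = 0.000631).

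twk-49 measured 1284, 771, 932 and 1425 against 152, 173, 186, 317 and 293 and rose 5.0-fold (2.32 ± 0.26). Its reference replicates 4 and 5 stood above the other 3 but under every A-class array. The remaining members rose 3.13-fold (twk-29, 1.64 ± 0.18), 2.68-fold (twk-35, 1.42 ± 0.15), 1.83-fold (twk-46, 0.88 ± 0.09) and 1.59-fold (egl-36, a Shaw-type voltage-gated channel, 0.67 ± 0.07). The twk family as a whole, counted after its values were seen, gave 5 of 45 called. Side by side, the pan-neural change was 1.11 ± 0.20 for twk-30 and 2.08 ± 0.24 for twk-49. The enrichment of twk-30 was higher in the A-class sample by 1.25 ± 0.20 (adjusted p = 0.00493), but this call was lost without A-class replicates 1, 3 or 4 or any pan-neural replicate, with an adjusted p of up to 0.0228.

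Calcium and sodium leak channels drive transmitter release and resting excitability, and 3 of 11 were called. unc-2, the pore subunit of the presynaptic calcium channel, rose 2.26-fold (1.17 ± 0.17) on 1 of 4 probe sets, the lowest of which was at 0.05. tag-180, an accessory calcium channel subunit gene, rose 2.11-fold (1.07 ± 0.13). unc-77, which encodes a sodium leak channel, rose 2.15-fold (1.10 ± 0.13), with 0.06 on its lowest probe set. Without A-class replicate 3 none of the 3 was called (adjusted p = 0.0106 for unc-77), and 1 was called without A-class replicate 1 or reference replicate 2. unc-2 was also lost without A-class replicate 4, reference replicates 1 or 5 (up to 0.0244) and under the day as a random block (adjusted p = 0.0243), and tag-180 was lost in the same 3 fits that gave a count of 0 or 1 (up to 0.0117). unc-79, which encodes a partner of the leak channel, had 0.84 ± 0.19 (adjusted p = 0.0478). Gap junction innexins gave 0 of 25, and their largest change was that of unc-9 (0.91 ± 0.21, adjusted p = 0.0458), which joins motor neurons and interneurons.

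Motor axons are steered by secreted cues and by cell surface proteins. Of 39 axon guidance genes 4 were called, unc-129 and unc-69 from above, madd-4 and unc-6. madd-4, a punctin that motor neurons secrete and that arranges receptors on muscle, measured 2662, 2201, 2239 and 2795 against 724, 758, 664, 815 and 1037. The groups were far apart, and replicates 1 and 4 of the A-class arrays were highest. It rose 3.11-fold (1.64 ± 0.13, adjusted p = 0.000486) and kept its call in all 9 fits, while its other probe set was at -0.10 and was not called. The netrin gene unc-6, at 1603, 921, 945 and 1537 against 427, 394, 463, 379.8 and 577, rose 2.73-fold (1.45 ± 0.20, 0.57 on the other probe set). Its call was lost without A-class replicates 1 or 4 or reference replicates 1, 2, 3 or 4 (up to 0.0185), and unc-69 was lost in the fits named above. The list's count with an array left out was 2 or 3.

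Among 52 adhesion and synapse specificity genes 3 were called. The tetraspanin gene tsp-7 measured 2228, 1136, 1200.3 and 2364 against 292, 298, 179, 474 and 565, with A-class replicates 1 and 4 well above 2 and 3 and no overlap (4.9-fold, 2.29 ± 0.35, adjusted p = 0.00893). The immunoglobulin genes syg-1 and zig-5 had 0.81 ± 0.11 (0.15 on the other probe set) and 0.68 ± 0.10. tsp-7 was called only without reference replicate 5 among the 9 fits (up to 0.0335 in the others), zig-5 only without A-class replicate 2 or reference replicate 4 (up to 0.0307), and syg-1 was lost without A-class replicates 2 or 4 or reference replicates 2, 4 or 5 (up to 0.0183). The day as a random block kept syg-1 alone (0.00967, with 0.0114 for tsp-7 and 0.0169 for zig-5). The flamingo cadherin gene fmi-1 (1.39 ± 0.27, adjusted p = 0.0228) and the calsyntenin gene casy-1 (0.99 ± 0.22, adjusted p = 0.0447) had separate groups and were not called. Wnt ligands and receptors gave 0 of 18.

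Transcription factor genes were read by family. Of 96 homeobox genes 2 were higher (2.08%, against 0.888% of all genes), with a median of 0.09. They were unc-4 and the POU gene ceh-6 at 0.72 ± 0.09 (adjusted p = 0.00237, and 0.0107 without A-class replicate 2). unc-3 was the only member called of 35 bHLH and COE factors. Of 259 nuclear hormone receptor genes 0 were higher and 1 was lower, nhr-65 at -1.03 ± 0.14, whose other probe set was at -0.34 and whose call was lost without A-class replicates 1 or 2 or reference replicates 1, 2, 3 or 4 (up to 0.0174).

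**Figure D4:**
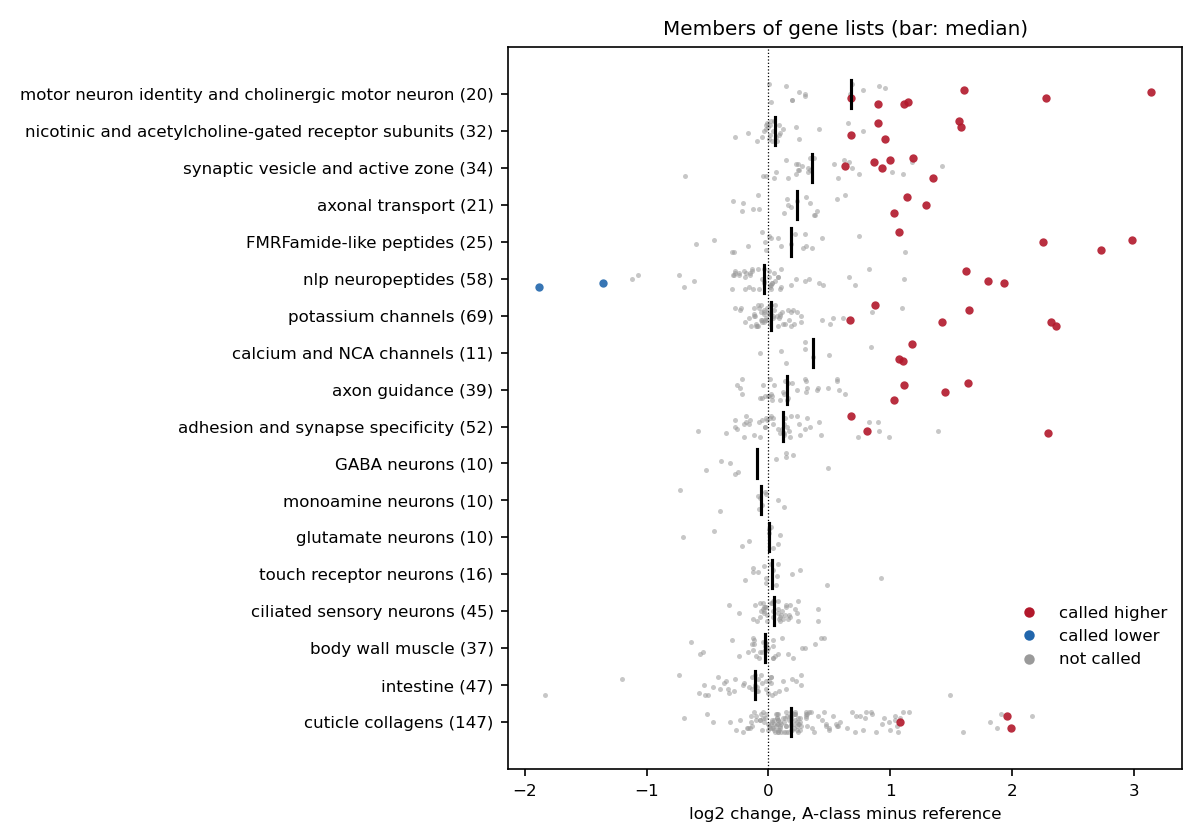
Each point is a gene of 1 of 18 lists (named at the left, with the number of measured genes), placed by its log2 change (horizontal axis, A-class minus reference), and black bars mark the median of a list. Red points were called higher, blue points lower and grey points not called, and the lists of other neuron classes, body wall muscle and intestine hold no coloured point.

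Several of the largest rises were in genes outside these lists. The globin gene glb-22 measured 482, 497, 478 and 655 against 65.5, 65.1, 62.2, 76.7 and 65.4. Replicate 4 was highest in each group, and the groups lay far apart. It rose 7.83-fold (2.97 ± 0.11, adjusted p = 2.6e-06). The caveolin gene cav-1, at 751, 425, 493 and 614 against 52.1, 80.0, 117.2, 72.5 and 117.5, rose 6.65-fold (2.73 ± 0.26), and its second probe set was also called. F47D12.3 rose 6.91-fold (2.79 ± 0.25), Y119C1B.3 6.91-fold (2.79 ± 0.19, 0.75 on the other probe set) and K09E4.4 6.16-fold (2.62 ± 0.11, both probe sets called). All 5 were called in each of the 9 fits with an array left out. Enrichment over the reference was higher in the A-class than in the pan-neural sample by 1.10 ± 0.16 for glb-22 (adjusted p = 0.00309) and 1.59 ± 0.24 for Y119C1B.3 (adjusted p = 0.00368). The first of these calls was lost without A-class replicate 2 (0.0115) or pan-neural replicate 3 (0.013), the other without A-class replicate 3 (0.0127) or pan-neural replicates 1 (0.0172) or 3 (0.0222). For unc-4 the same difference was 1.69 ± 0.21 (adjusted p = 0.00173, and 0.0107 without pan-neural replicate 1), with a pan-neural change of 1.45 ± 0.15.

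No marker of the other neuron classes listed was called in the A-class sample. With 0.888% of all genes called higher and 0.123% lower, 0 calls in lists of this size are near the share of all genes. Of 10 genes that mark GABA neurons 0 were called, with a median of -0.10, and 5 had a lower enrichment than in the pan-neural sample by the test of the difference. unc-25, which encodes the enzyme that makes GABA, measured 207, 143, 146 and 157 in the A-class arrays and 204, 224, 157, 326 and 279 in the reference. The groups overlapped, with most A-class arrays under most reference arrays (-0.52 ± 0.20, adjusted p = 0.242). Its pan-neural change was 2.28 ± 0.24, and the difference of the enrichments was -2.79 ± 0.19 (adjusted p = 0.000101). The GABA transporter gene unc-47 and the GABA identity gene unc-30 had A-class changes of -0.25 ± 0.14 and 0.21 ± 0.09, pan-neural changes of 1.32 ± 0.18 and 1.43 ± 0.12 and differences of -1.57 ± 0.15 and -1.23 ± 0.10. The summed intensity of the list was 1391 to 1639 in the A-class arrays and 1507 to 1901 in the reference, and no marker was at 0 on either side, since RMA gives no zero.

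Markers of other transmitter classes were not called either. The dopamine transporter gene dat-1 measured 166, 76.6, 110.7 and 110.4 against 89.1, 103.8, 135, 85.3 and 210.0 and the glutamate transporter gene eat-4 90.9, 80.1, 72.9 and 104.6 against 85.6, 85.6, 90.9, 74 and 85.6, both with overlap. Their A-class changes were -0.07 ± 0.29 and 0.04 ± 0.11, beside 2.80 ± 0.25 and 2.55 ± 0.15 in the pan-neural sample, and the differences were -2.87 ± 0.23 (adjusted p = 0.000177) and -2.51 ± 0.18 (adjusted p = 0.000113). Of 10 monoamine and 10 glutamate neuron genes 0 were called in the A-class comparison. In the pan-neural sample 2 of the monoamine genes (median 0.08) and 1 of the glutamate genes (median -0.03) were higher. The values of dat-1 and eat-4 thus do not stand for their lists. By the test of the difference 2 monoamine genes and 1 glutamate gene had a lower A-class enrichment. Of 45 genes of ciliated sensory neurons 0 were called, 24 were higher in the pan-neural sample and 18 had a lower A-class enrichment.

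Touch receptor neurons gave 0 of 16 in the A-class sample, and 10 higher and 1 lower in the pan-neural sample. By the test of the difference 9 had a lower A-class enrichment and 1 a higher one. mec-17, which encodes the tubulin acetyltransferase of these cells, measured 536, 297, 318 and 301 against 374, 427, 352, 407 and 454. A-class replicate 1 lay above the reference and the other 3 lay below it. The change was -0.19 ± 0.17, the pan-neural change 2.93 ± 0.14 and the difference -3.12 ± 0.22 (adjusted p = 0.000111). The beta tubulin gene mec-7, at 449, 257, 241 and 264 against 225, 237, 221, 272 and 273, was also highest on A-class replicate 1, with 0.26 ± 0.17 in the A-class and 2.44 ± 0.17 in the pan-neural sample. mec-12, which encodes an alpha tubulin found in touch neurons and in other neurons, was the member nearest a call (0.92 ± 0.19, adjusted p = 0.0308). Tubulin genes are similar in sequence, so their probe sets may share signal. Fits that each left out an array of either sample counted the genes with a lower A-class enrichment. The counts were 3 to 5 for GABA, 5 to 8 for touch and 9 to 17 for ciliated neurons. The differences of unc-25, unc-47, unc-30, dat-1, eat-4, mec-17, mec-7 and mec-4 were called in all 7 such fits.

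**Figure D5:**
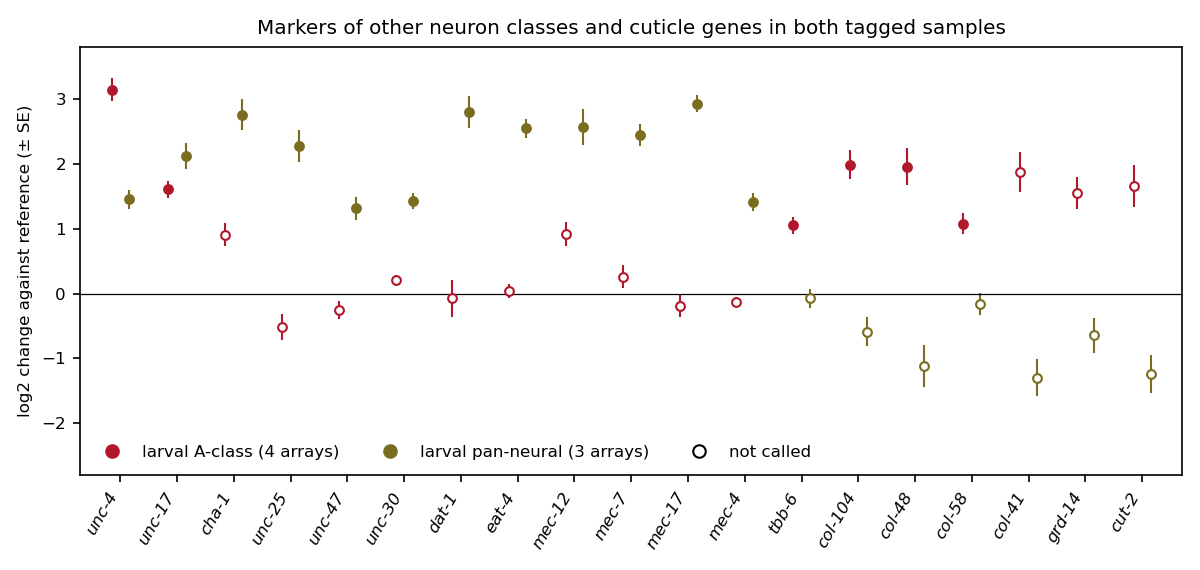
The log2 change against the reference (vertical axis, ± SE) is plotted for unc-4, unc-17, cha-1, markers of GABA, dopamine, glutamate and touch neurons, and tbb-6 with cuticle genes, in the A-class sample (red, 4 arrays) and the pan-neural sample (olive, 3 arrays), with open points where a change was not called. The markers from unc-25 to mec-4 have filled olive points between 1.32 and 2.93 and open red points, while col-104, col-48 and col-58 have filled red points and olive points under 0.

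No member of the lists for muscle, intestine, germline and general upkeep was called. With 0.888% of all genes called higher and 0.123% lower, 0 calls in such lists are near the share of all genes. The counts were 0 of 37 body wall muscle, 0 of 11 pharyngeal muscle, 0 of 47 intestine, 0 of 66 germline, 0 of 35 cell cycle, 0 of 62 ribosomal protein and 0 of 32 respiratory chain genes, with medians between -0.16 and 0.06. Of the 47 intestine genes 5 lay wholly lower in the A-class arrays and 2 wholly higher, against 3.11% and 4.26% of all genes. unc-22, the twitchin gene of muscle, measured 1248, 1016, 1276 and 1047 against 1833, 1679.9, 1961, 1316 and 1688. All A-class arrays lay under the reference, but the change of -0.56 ± 0.12 was not called (adjusted p = 0.0401). The pharyngeal myosin gene myo-2 had -0.16 ± 0.28 with overlapping groups. pab-1, the gene of the tagged protein, measured 3146, 3209, 2761 and 3609 against 1508, 2016, 2206, 4071 and 3308, where reference replicate 4 was above all A-class arrays (0.36 ± 0.26, adjusted p = 0.576), and whether its probe set reads the transgene was not tested. The probe set of rgef-1, the gene that F25B3.3 names, stayed at 9.67 to 10.9 and 8.79 to 10.3, near the floor of the array.

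Cuticle collagens, which the epidermis makes for each moult, were, with other epidermal genes, the non-neuronal lists in which genes were called higher. Of 10 pharyngeal gland and marginal cell genes 0 were called. By the test of the difference 3 of these 10 had a higher A-class enrichment, and 2 to 4 when an array was left out. The largest change of that list was that of phat-2 (1.09 ± 0.21, adjusted p = 0.0216), with a difference of 1.67 (adjusted p = 0.00199). Of 147 measured collagen genes 3 were called higher (2.04%, against 0.888% of all genes) and 0 lower, and the median was 0.19. A log2 change above 0 was found for 120 of them, against 8186 of 17118 over all genes. col-104 measured 903, 1104, 851 and 593 against 159, 166, 244, 227 and 297. The groups were far apart, and replicate 2 was highest and replicate 4 lowest of the A-class arrays. It rose 3.97-fold (1.99 ± 0.22, adjusted p = 0.0018) and was called in all 9 fits. col-48 (1.96 ± 0.29) and col-58 (1.08 ± 0.16) were lost in 7 of the 9, col-48 in all but those without A-class replicate 4 or reference replicate 4 (up to 0.0262) and col-58 in all but those without A-class replicate 4 or reference replicate 5 (up to 0.0243). col-48 and col-58 were also lost with the day as a random block (adjusted p = 0.0163 and 0.0214). The list's count was 1 in 6 of these fits.

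The spread between A-class arrays was wide in these genes. col-41 measured 4054, 7885, 7529 and 3452 against 1923, 959.7, 1188, 2131 and 1427, with A-class replicates 2 and 3, which share a day, above replicates 1 and 4 and no overlap with the reference (1.88 ± 0.31, adjusted p = 0.0118). The cuticlin gene cut-2 was likewise highest on replicates 2 and 3, at 3345, 6455, 5836 and 3034 against 1937, 951, 1215, 2289 and 1061 (1.66 ± 0.32, adjusted p = 0.0226). Among 106 further hypodermal and moulting genes 1.89% were called higher, against 0.888% of all genes. They were the ground-like gene grl-16 (1.08 ± 0.17) and the protease inhibitor gene bli-5 (0.98 ± 0.14), and grd-14 was not called (1.55 ± 0.25, adjusted p = 0.01). grl-16 was called only without A-class replicate 4 among the 9 fits (up to 0.0319) and bli-5 only without A-class replicate 4 or reference replicate 1 (up to 0.0239), and neither was called with the day as a random block (0.0206 and 0.0158). The count of that list was 4 without A-class replicate 4, 1 without reference replicate 1 or 5 and 0 in the other 6 fits. Probe sets of collagen genes can cross-hybridize, so members may share signal, which makes both single members and the count of collagens less certain.

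The summed intensity of the 147 collagens was 165551 to 194672 in the A-class arrays and 105055 to 179370.0 in the reference, with overlap. In the pan-neural sample 0 collagens were higher and 7 lower, with a median of -0.21, and 40 had a higher enrichment in the A-class than in the pan-neural sample, between 15 and 45 when an array of either was left out (15 without pan-neural replicate 3). The differences were 2.57 ± 0.26 for col-104, 3.17 ± 0.34 for col-41 and 2.90 ± 0.31 for cut-2, called in all 7 such fits. The part of epidermal RNA and of the day of the arrays in these values was not tested. tbb-6, a beta tubulin gene, also rose in the A-class sample (1.05 ± 0.13, adjusted p = 0.00274) and had -0.07 ± 0.15 in the pan-neural sample, a difference of 1.12 ± 0.14. Its rise was lost without A-class replicate 3 or reference replicate 2 (up to 0.0125).

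The genes that fell were fewer. Beside nlp-27, nlp-31 and nhr-65, C15A11.7 measured 185, 99.6, 114.3 and 107.9 against 321, 379, 343, 478 and 442, with A-class replicate 1 above the other 3 and no overlap (3.16-fold lower, -1.66 ± 0.19, adjusted p = 0.00197). It was called in all 9 fits, as was nlp-27. hrg-4, a haem transporter gene of the intestine, was 2.79-fold lower (-1.48 ± 0.18), the cysteine synthase-like gene cysl-2 2.38-fold (-1.25 ± 0.18), the glucuronosyl transferase gene ugt-17 2.25-fold (-1.17 ± 0.14), the organic anion transporter gene oat-1 2.17-fold (-1.12 ± 0.18, with another of its 3 probe sets at -0.02) and the glutathione transferase gene gst-14 2.12-fold (-1.08 ± 0.17). hrg-4 was lost without A-class replicates 2 or 3 or reference replicate 2 (up to 0.0116) and ugt-17 without A-class replicates 2, 3 or 4 (up to 0.0117). cysl-2, oat-1 and gst-14 were each called in 1 of the 9 fits, without reference replicate 5, A-class replicate 1 and reference replicate 1 respectively (up to 0.0232, 0.037 and 0.0356 in the others), and in none with the day as a random block (0.0228, 0.0281 and 0.0418). The pan-neural changes of hrg-4, cysl-2, ugt-17, oat-1 and gst-14 were -1.23 ± 0.18, -1.75 ± 0.23, -1.13 ± 0.17, -1.16 ± 0.20 and -1.15 ± 0.14.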

How the data were processed

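Affymetrix C. elegans arrays of 4 larval A-class and 5 larval reference samples were analysed. The deposited values are intensity per probe set, which the authors computed by RMA (background correction, quantile normalization, probe summary) separately for 3 sets of arrays and returned from log2 to a linear scale. The RMA version was not given in the sources used here. Other deposited records hold fluidics and scanner settings of each array, of another kind than expression, and were used for days and wash protocols.

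The file holds 22625 probe sets. The 77 AFFX controls were left out, the other 22548 were turned to log2 and tested without a filter. A single gene was named for 20766, several for 887 and none for 895. Gene numbers of 20701 were found in the RefSeq table of WBcel235, which was used for names. Each of 17118 genes was read from its probe set of highest mean intensity.

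The study's methods name SAM. limma 3.58.1 in R 4.3.3 took its place at the same numeric limits (adjusted p under 0.01 by Benjamini-Hochberg over all probe sets, at least 1.5-fold), without covariates, and was tested on simulated data. The methods differ, so the calls are not those of the study. Some genes not called here, such as cha-1, acr-14, flp-2, flp-5, mec-12 and mig-1, are enriched in the study's larval A-class profile. The pan-neural arrays were fitted with the 5 references that the series design assigns to them, 3 of which are labelled with the embryonic set. Named genes were the 12 most raised and 8 most lowered, markers and controls, and of each of 42 gene lists at most 6 called and 3 uncalled members, or all of a list of up to 16. Members and lists were chosen with earlier results of these data known. Replicate numbers do not pair the groups, since deviations of same-numbered arrays correlated at -0.42 to -0.08. Alternatives were other scalings, filters, thresholds, variance priors, probe set rules, blocks and omission of single arrays. Errors beside log2 changes are limma's moderated standard errors (SE). Single-gene folds near the floor of the array are rough.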

Additional observations from a re-analysis of the deposited data

Results flagged for a closer look

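An array stood apart from the others of its group for several named genes, a test by which chance picks about 1 in 20 groups. The test was run in both groups for each of the 107 named genes, so chance alone can give as many arrays as those below. A-class replicate 1 was high for the touch neuron genes mec-17 (536 against 297 to 318) and mec-7 (449 against 241 to 264) and for ugt-17 (101.4 against 68.4 to 72.7). It is the array with the other wash protocol, and a part of that protocol in these values was not tested. A-class replicate 2 was low for unc-11 (543 against 582 to 589) and oig-1 (201 against 273 to 286). glb-22 was high on A-class replicate 4 (655 against 478 to 497) and on reference replicate 4 (76.7 against 62.2 to 65.5), and flp-4 was low on reference replicate 1 (53.3 against 105.1 to 118.3).

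The enrichment over the reference differed between the A-class and the pan-neural sample by limma for 38 of the 107 named genes, 15 higher and 23 lower in the A-class sample. It was higher for unc-4 (log2 difference 1.69), glb-22 (1.10), Y119C1B.3 (1.59), twk-30 (1.25), tbb-6 (1.12), and the collagen and epidermal genes col-104 (2.57), col-48 (3.08), col-58 (1.24), col-41 (3.17), col-97 (2.83), col-109 (3.06), grl-16 (1.44), bli-5 (1.00), grd-14 (2.19) and cut-2 (2.90). It was lower for the neuropeptide genes flp-2 (-1.23), flp-5 (-1.31), flp-12 (-1.04) and nlp-80 (-1.75), for the convertase gene egl-3 (-1.22), and for glr-4 (-0.82), cha-1 (-1.85), snt-1 (-0.86), unc-14 (-0.74), acy-2 (-0.88), casy-1 (-0.98), oig-1 (-1.41), sol-1 (-1.67) and pab-1 (-0.99). Among markers of other neuron classes it was lower for unc-25 (-2.79), unc-47 (-1.57), unc-30 (-1.23), dat-1 (-2.87), eat-4 (-2.51), mec-12 (-1.65), mec-17 (-3.12), mec-7 (-2.18) and mec-4 (-1.54). Of the 38 differences, 16 were called in all 7 fits that left out an array of either sample, those of tbb-6, col-104, col-41, cut-2, unc-14, flp-5, oig-1, sol-1, unc-25, unc-47, unc-30, dat-1, eat-4, mec-17, mec-7 and mec-4. The other 22 were lost in 1 or more of these fits. unc-4 was lost without pan-neural replicate 1 (adjusted p = 0.0107), flp-12 and col-48 without pan-neural replicate 3 (0.011 and 0.0116), grd-14, mec-12 and nlp-80 without pan-neural replicate 1 or 3 (up to 0.0149, 0.0141 and 0.0157), and glb-22 without A-class replicate 2 or pan-neural replicate 3 (up to 0.013). The remaining 15 were lost in 3 to 6 of the 7 fits, with an adjusted p of up to 0.037 for glr-4.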

How the results depend on the processing

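The calls depended on the thresholds, on single arrays and on what was taken as the spread. Against 175 higher and 26 lower, an adjusted p under 0.05 gave 382 and 170, a 2-fold minimum 114 and 12, the day of the array as a random block 107 and 9 (correlation 0.37), and the 2 references with the record layout of the A-class arrays alone 4 and 2, which lost the calls of 61 of 65 named genes. The fit with 2 references also held fewer arrays, which cannot be told apart from the record layout. With 16 added to the intensity 14 were lower. Without single arrays 82 to 153 were higher and 7 to 39 lower. With the replicate number as a block the counts were 12 and 0 (and 200 and 289 for the A-class minus pan-neural enrichment), with 57 of the 65 named calls lost, unc-3 and unc-17 among them (adjusted p = 0.012 and 0.017), but the numbers do not pair the arrays. For that enrichment 440 probe sets were higher and 847 lower, an adjusted p under 0.05 gave 1088 higher, and leaving out single arrays gave 91 to 629 and 446 to 916. Of 65 named genes that were called, 27 were called in all 9 fits that left out an array, 37 in 6 or more, and 24 were lost with the day as a random block. Changes near 0 turned sign. The Gapdh difference between the groups, 0.08, was -0.066 with the middle probe set. dat-1 (-0.07) was 0.14 with the replicate block and -0.26 to 0.14 without single arrays, myo-2 (-0.16) was 0.0104 with the replicate block and -0.33 to 0.0104 without single arrays, eat-4 (0.04) was -0.056 to 0.12 without single arrays, and pab-1 (0.36) was -0.21 with the 2 references of the same record layout. The cause was not tested. Counts kept their size with another scaling, with a filter on intensity, without probe sets of shared sequence, and with genes read as the mean of their probe sets, which lost the calls of snt-1, syd-1, snb-1, goa-1, unc-2, unc-6, madd-4 and syg-1. The array lot as a block was not run, as there was 1 lot, a day as a fixed block was not run, as no day held both groups, and promoter motifs were not analysed here. Signal over background limits genes near the floor.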

Other observations

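Some families were counted after their values were seen. Over all genes 0.888% were called higher and 0.123% lower. Of 64 glucuronosyl transferase genes 3 were called lower and 1 higher, with a median log2 change of -0.17, and of 45 glutathione transferase genes 2 were lower and 0 higher (median -0.15). Of 43 nssp genes, which encode small secreted proteins, 4 were higher and 0 lower (median 0.04). Cytochrome P450 genes (73) and C-type lectin genes (220) gave 0 in either direction. Among 20 glutamate receptor genes 1 was called, sol-1, which encodes an auxiliary subunit (0.78 ± 0.12), and it was lost in all 9 fits with an array left out (adjusted p 0.0142 to 0.0366) and with the day as a random block (0.0234). Its pan-neural change was 2.46 ± 0.13.

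Guanylate cyclases gave 0 of 34, basement membrane genes 0 of 21 and heat shock genes 0 of 28 in the A-class comparison. Of the guanylate cyclases 16 had a mean log2 intensity under 5 in both groups, near the floor of the array. DEG/ENaC subunits gave 1 of 23, del-1. The 12 genes of coelomocytes and glia gave 0. The Frizzled gene mig-1 had 0.67 ± 0.16 (adjusted p = 0.0584) with separate groups, beside 0.09 ± 0.17 in the pan-neural sample. oig-1 had 0.91 ± 0.16 (adjusted p = 0.0181) beside 2.31 ± 0.16.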
